A study of Bos taurus with 129 samples.

Results

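Whole blood of 26 steers at day 60 after arrival was compared between cattle with bovine respiratory disease (BRD) and healthy cattle. They were all of the libraries labelled with that time point, 1 per animal, and were split by the labelled disease status into 14 from BRD cattle and 12 from healthy cattle. The series sampled the same 26 steers on 5 days, and 1 healthy AAC animal was not analysed here on day 13. Bovine respiratory disease is a pneumonia complex of newly received cattle in which stress, viruses and bacteria act together. Neutrophils and interferon-driven genes respond early in such infections, and B cells, which carry the antigen receptor and present antigen on major histocompatibility complex (MHC) class II, and T cells carry the later response. Whole blood RNA reads the mix of these cells and their activity together, so that fewer cells of a type and less RNA per cell cannot be told apart.

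All animals were high-risk stocker steers that had been vaccinated at arrival and again during the study and dewormed, fed in pens and moved between pens at intervals. The animals received one of 3 trace element programs, all with copper, cobalt, manganese and zinc. INR cattle (7 BRD, 4 healthy) were fed sulfate sources. AAC cattle (4 BRD, 4 healthy) were fed copper, manganese and zinc bound to amino acids and cobalt as glucoheptonate. COMBO cattle (3 BRD, 4 healthy) received the AAC feed. They were also drenched with trace minerals by mouth before shipment, at arrival and with any later treatment for sickness. Healthy cattle were never diagnosed with or treated for clinical BRD over the 60 days. The days on which the BRD cattle were diagnosed, and the drugs they were given, were not given in the sources used here. Accordingly, day 60 cannot be placed relative to the sickness of an animal. At enrollment the AAC cattle stood in pens 2 and 8, each with 2 BRD and 2 healthy animals. The COMBO BRD cattle stood in pen 6 and the COMBO healthy cattle in pen 5. In COMBO, pen and disease thus cannot be told apart, and any drench with treatment for sickness also went with disease. In INR, pen 7 held 4 BRD animals and no healthy one. INR pen 4 held 1 BRD and 3 healthy animals, and pen 3 held 2 BRD and 1 healthy. Pen and disease were therefore partly tied in INR and in the comparison of all cattle.

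The depth of the libraries lay between 38173713 and 59092041 counts in BRD cattle, and between 35806665 and 54735466 in healthy cattle. PTPRC, the pan-leukocyte phosphatase CD45, stood between 1440 and 2360 CPM (counts scaled to a common library size), and the hemoglobin gene HBB between 35.5 and 4090 CPM. SFTPC, a lung surfactant gene, and INS had no count in any library, and ALB reached at most 0.0615 CPM. On the first principal component, which held 25.4% of the variance, INR animal 40 (score -182) and COMBO animal 54 (score -183) stood apart from all others, which ranged from -86.1 to 98.3. Both were BRD cattle, and the library of animal 40 had the lowest RNA integrity of the study. INR animal 43, also with BRD, stood apart on the second component (score 166). Values without animals 40 and 54 are given beside the groups and genes that moved most with them.

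Of 16258 genes tested at day 60 with supplement as a covariate, 0 (0%) were called between BRD and healthy cattle at a false discovery rate (FDR) below 0.10 by the quasi-likelihood test of edgeR. The smallest FDR was 1. At an unadjusted p below 0.05 there were 370 genes (2.28%), of which 201 (1.24%) were higher and 169 (1.04%) lower in BRD cattle. On the same 26 libraries DESeq2 called 1 gene, ATP6, with 428 at an unadjusted p below 0.05, and limma with voom called 0, with 341. No gene had BRD and healthy values that did not overlap.

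The intervals give the sizes of difference, averaged over supplements, that the values of each gene allow. They are unadjusted and taken gene by gene, so they do not mark what the test at an FDR below 0.10 could call. The 95% interval of the log2 fold change lay within -1 to 1 for 14622 genes (89.9%), and within -0.5 to 0.5 for 10314 genes (63.4%). Among the 9617 genes with a mean of at least 10 CPM, 96.7% had an interval within -1 to 1. The median size of the log2 fold change was 0.0789, and it was larger than 1 in 0.627% of genes. A difference within 1 supplement can lie outside these intervals. Of 20 B cell markers, 19 had an interval within -1 to 1, and their median in AAC was -1.

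**Figure D1:**
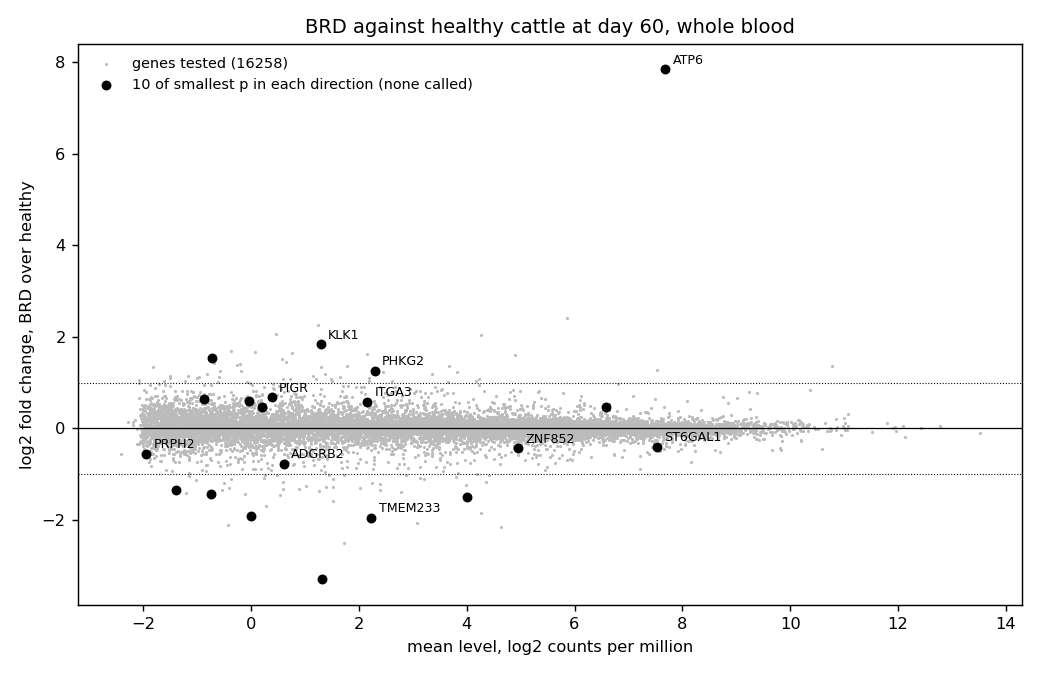
Log2 fold change of BRD over healthy cattle (vertical axis) against the mean level in log2 CPM (horizontal axis) for 16258 genes at day 60, with dotted lines at -1 and 1. Black points are the 10 genes of smallest p in each direction, some of them named, and none of them was called. ATP6, at 7.84, and LOC112442318, at -3.30, lie farthest from 0.

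The genes of smallest p differed in how the same animals stood on earlier days. In 13 of the 20 genes of smallest p (10 in each direction) the disease term had the same sign on all 5 sampling days, and in 8 of these its unadjusted p was below 0.05 on every day. The 8 include KLK1 and LOC112442318, whose differences were largest in a few animals, as given below. The same animals were sampled each time, so these days are not independent. The 20 genes were picked by their day 60 p, and the same counts over all genes are not given here. Over all genes the median share of the variance of log2 CPM that lay between animals was 48.5%.

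ST6GAL1, which encodes the sialyltransferase that caps glycans with alpha-2,6 sialic acid, was among these genes. It ranged from 120.6 to 303 CPM in BRD cattle (median 146) and from 157 to 248 CPM in healthy cattle (median 213). The mean was 162 ± 47.1 CPM (SD, n = 14) against 211 ± 29.2 CPM (SD, n = 12), and the groups overlapped. Its log2 fold change was -0.40 at day 60, with a 95% interval of -0.64 to -0.16, and lay between -0.38 and -0.35 on the 4 earlier days. Of its variance, 84.6% lay between animals.

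ITGA3, the alpha-3 integrin subunit, ranged from 2.50 to 8.14 CPM in BRD cattle (median 5.37) and from 1.59 to 5.05 CPM in healthy cattle (median 3.49). Its log2 fold change was 0.58, with an interval of 0.21 to 0.96, and 0.49 on day 0. ADGRB2, an adhesion G protein-coupled receptor, ranged from 0.655 to 2.10 CPM in BRD and from 0.714 to 2.92 CPM in healthy cattle, with a log2 fold change of -0.77 at day 60 and of -0.47 to -0.79 before. In all 3 genes the order of the groups was thus present at arrival.

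Other differences were largest in a few animals. KLK1, tissue kallikrein, which releases kinins, had a median of 1.51 CPM in BRD and 0.83 CPM in healthy cattle. AAC animal 9 stood at 13.9 CPM and COMBO animal 16 at 17.98 CPM, both with BRD, and all other libraries at or below 3.57 CPM. The log2 fold change of KLK1 was 1.83, and 1.36 without animal 16. LOC112442318 was at 57.95 CPM in 1 healthy animal, INR animal 10, and at or below 0.361 CPM in the other 25 libraries. Its log2 fold change was -3.30 with that animal and -0.16 without it. KLK1 and LOC112442318 were above 10 CPM on earlier days only in these same animals.

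Further genes did not keep the size or the sign of the day 60 difference across the earlier days. NCS1 kept its sign, with a log2 fold change of 0.64 at day 60 and of 0.08 to 0.20 before. LOC112441717 had a log2 fold change of 0.47 at day 60, with medians of 110 CPM in BRD and 72.41 CPM in healthy cattle, and between -0.05 and 0.30 on the earlier days. It was positive in COMBO (0.68) and INR (0.79) and at -0.09 in AAC. ZNF852, a zinc finger gene, was at -0.44 at day 60, with 16.6 to 44.5 CPM in BRD and 20.6 to 42.9 CPM in healthy cattle, and between -0.17 and 0.23 before. FBLL1, a fibrillarin-like methyltransferase gene, was at 0.47 at day 60 and between -0.01 and 0.10 before.

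TMEM233, a transmembrane protein gene, was at -1.95 at day 60, with medians of 1.53 CPM in BRD and 4.25 CPM in healthy cattle, and at 0.89 on day 45. PHKG2, the catalytic subunit of phosphorylase kinase in glycogen breakdown, had 4 BRD animals above 10 CPM (11.7 to 23.47 CPM) and no healthy animal above 3.695 CPM. Those 4 include animals 40 and 54, and without both the log2 fold change was 0.88 in place of 1.26. The BRD median of 3.97 CPM was also above the highest healthy value, and 8 of 14 BRD animals were above it. On the earlier days the log2 fold change of PHKG2 was -0.39 (day 0), 0.74 (day 13), -0.12 (day 28) and 0.69 (day 45). At day 60 it was 0.21 ± 0.60 (SE) in AAC, 2.16 ± 0.64 in COMBO and 1.43 ± 0.56 in INR. On day 28, 1 of 14 BRD animals and 4 of 12 healthy animals were above 10 CPM for PHKG2.

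**Figure D2:**
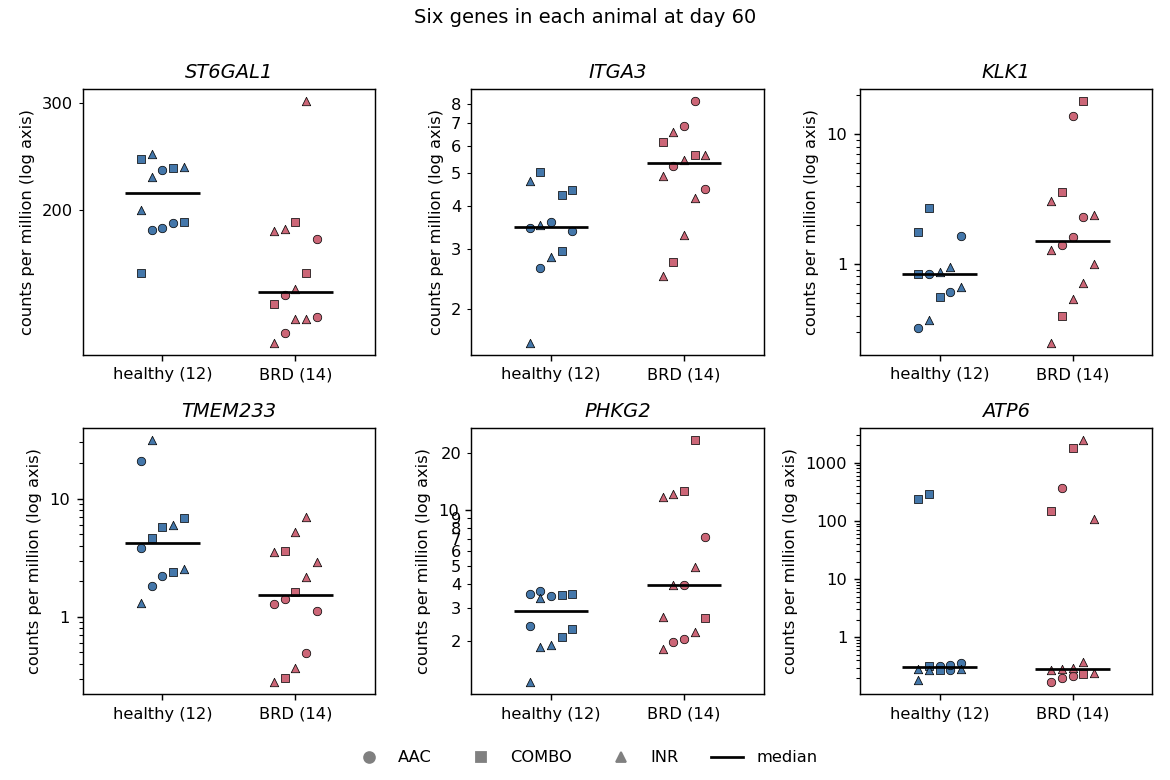
CPM on a log axis for 6 genes in each of 12 healthy and 14 BRD animals at day 60, with the supplement as the marker shape and the median as a line. All 6 genes overlap between the groups, and KLK1, PHKG2 and ATP6 have a few BRD animals far above the others.

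ATP6, a mitochondrially encoded subunit of the ATP synthase, was the gene called by DESeq2 (adjusted p of 2.8e-06) and not by edgeR (log2 fold change 7.84, interval 2.68 to 13.00). It was above 10 CPM in 5 BRD animals (at most 2430 CPM) and in 2 healthy animals (239 and 286 CPM), and at or below 0.367 CPM in all others. Its reading frame overlaps that of ATP8 on the mitochondrial genome. ATP8 was at or below 23.8 CPM in all of the libraries high for ATP6, and at 26.8 to 160 CPM in the others except AAC animals 31 and 48, at 0.55 and 0.484 CPM. Counts of these overlapping genes are uncertain. The largest ATP6 values were those of animals 40 and 54, and without both the log2 fold change was 6.12.

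Genes of innate defense were examined as groups. Of 14 tested genes of the neutrophil surface and its alarmins, 0 were called and 13 had positive log2 fold changes (median 0.24, against 0.01 over all genes). CXCR2, a receptor for neutrophil-attracting chemokines, ranged from 6.59 to 189 CPM in BRD cattle and from 7.26 to 100 CPM in healthy cattle, with a log2 fold change of 0.62 (interval -0.16 to 1.41). TREM1, which amplifies myeloid activation, was at 0.55 (interval -0.24 to 1.33). The 15 neutrophil granule genes did not share this direction, with 7 positive and 8 negative and a median of -0.04, and MMP9, gelatinase B, was at 0.30 (interval -0.27 to 0.88). The 7 cathelicidin genes in the table were too low to be tested.

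Of 40 interferon-stimulated genes, 29 had negative and 11 positive log2 fold changes (median -0.09), and 1 was at an unadjusted p below 0.05. That gene was IFIT2, an inhibitor of viral translation, with a log2 fold change of 1.61 (interval 0.33 to 2.89). It ranged from 5.15 to 312 CPM in BRD cattle and from 3.96 to 36.21 CPM in healthy cattle, and without COMBO animal 18, the highest, the log2 fold change was 1.046. RSAD2, which encodes the antiviral enzyme viperin, was at -0.69 (interval -1.61 to 0.24). IFNG, interferon-gamma itself, had medians of 0.162 CPM in BRD and 0.274 CPM in healthy cattle and was at -0.52, with an upper bound near 0. The supplements did not share this direction, at 0.47 ± 0.36 (SE) in AAC, -1.45 ± 0.44 in COMBO and -0.84 ± 0.33 in INR. The groups of interleukin-1 and inflammasome genes, TNF and NF-kB feedback genes, Toll-like receptors and monocyte markers had medians between -0.06 and 0.02.

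Eosinophil and basophil markers had a median of 0.21 over 12 genes, with 10 positive, and of 0.11 without animals 40 and 54. CCR3, the eotaxin receptor, ranged from 15.2 to 113.8 CPM in BRD cattle and from 19.3 to 61.17 CPM in healthy cattle, with a log2 fold change of 0.32 (interval -0.14 to 0.78). The median of this group was 0.84 in AAC and -0.20 in INR. HPGDS, which makes prostaglandin D2, was the only lipid mediator enzyme of 14 at an unadjusted p below 0.05, at a level of at most 1.12 CPM and with a log2 fold change of 0.75 (interval 0.02 to 1.48).

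All 15 tested genes of STAT signaling and its SOCS feedback had positive log2 fold changes, the highest 0.29, with a median of 0.10 and none at an unadjusted p below 0.05. IL2RA, the interleukin-2 receptor alpha chain, was at 0.23 (interval -0.10 to 0.56), and CISH, a feedback inhibitor of cytokine signaling, at 0.17 (interval -0.11 to 0.45). Without animals 40 and 54 the median was 0.06, and all 15 stayed positive.

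Genes of adaptive immunity were examined in the same way. Of 20 B cell markers, 0 were called, 19 had negative log2 fold changes, and the median was -0.22. By supplement the median was -1 in AAC, 0.18 in COMBO and 0.06 in INR. The summed level of the 20 markers had a median of 3823 CPM in BRD and 3762 CPM in healthy cattle. CR2, complement receptor 2, ranged from 83.7 to 233 CPM in BRD cattle (median 128.2) and from 138 to 391 CPM in healthy cattle (median 188), with a log2 fold change of -0.42 (interval -0.81 to -0.03). BLK, a Src family kinase of the B lineage, was the exception at 0.27 (interval -0.03 to 0.56). Of 16 genes of MHC class II presentation, 14 were negative (median -0.135), and without animals 40 and 54 all 16 were (median -0.22). The supplements did not share this direction: with all libraries, the median of the MHC class II genes was -0.63 in AAC, 0.14 in COMBO and 0.06 in INR. BOLA-DRA, the DR alpha chain, was at -0.15 (interval -0.44 to 0.14).

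T cell markers had a median of 0.05 over 22 genes. The 8 tested markers of gamma-delta T cells, a lymphocyte class that is abundant in the blood of cattle, were all positive, with a median of 0.29. WC1.3, a scavenger receptor that marks them, ranged from 55.8 to 464 CPM in BRD cattle and from 81.1 to 206 CPM in healthy cattle, with a log2 fold change of 0.64 (interval 0.13 to 1.15). SOX13, a transcription factor of this lineage, was at 0.50 (interval 0.03 to 0.97). WC1 genes are near-identical copies, and reads may have been split among them. Without animals 40 and 54, 7 of 8 were positive and the median was 0.19. By supplement the median of the gamma-delta T cell markers was 0.73 in AAC, 0.47 in COMBO and -0.03 in INR. WC1.3 was at 1.3 in AAC, 0.62 in COMBO and 0.16 in INR.

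BOLA-NC1, a nonclassical MHC class I gene, ranged from 72.38 to 631 CPM in BRD cattle (median 258) and from 18.3 to 297 CPM in healthy cattle (median 95.98). Its log2 fold change was 1.27 (interval 0.42 to 2.11), the groups overlapped, and bovine class I genes are polymorphic and alike in sequence, so that its counts are uncertain. PIM2, a survival kinase of plasma cells, had a median of 41.1 CPM in BRD and 31.8 CPM in healthy cattle, with a log2 fold change of 0.59 (interval 0.15 to 1.02). The plasma cell group as a whole had 11 of 13 genes positive (median 0.16), and TNFRSF17, the plasma cell receptor BCMA, was at 0.40 (interval -0.15 to 0.95). The median of the group was 0.04 in AAC, 0.48 in COMBO and -0.11 in INR, and in COMBO, where pen and disease cannot be told apart, its summed level in BRD animals was wholly above that in healthy animals. PIM2 itself was at 0.67 in AAC, 0.48 in COMBO and 0.60 in INR.

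Most housekeeping groups turned on 2 libraries, and their medians differed by supplement. Of 82 cytosolic ribosomal protein genes, 76 were positive (median 0.09), and without animals 40 and 54 only 2 were positive (median -0.14). The summed level of these genes was 100550 CPM in animal 40 and 87931 CPM in animal 54, and at most 70041 CPM in any other library. Of 80 nuclear-encoded respiratory chain genes, 60 were positive with all libraries and 6 without the pair, and the respective medians were 0.05 and -0.08. For proteasome genes, 29 of 34 were positive with all libraries and 6 without them. Cell cycle genes were mostly positive in both cases, with 26 of 28 positive with all libraries and 27 without the pair (medians 0.10 and 0.11), and none of them was at an unadjusted p below 0.05. With all libraries, the medians of ribosomal, respiratory chain and proteasome genes were -0.255, -0.22 and -0.175 in AAC. They were 0.267, 0.20 and 0.17 in COMBO, and 0.247, 0.18 and 0.17 in INR. The cell cycle median was -0.07 in AAC, -0.003 in COMBO and 0.28 in INR.

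Heat shock chaperones had 14 of 21 genes negative with all libraries and 20 of 21 without animals 40 and 54. Their median with all libraries was -0.27 in AAC, 0.09 in COMBO and 0.05 in INR. HSPA8, a constitutive chaperone, ranged from 361 to 3060 CPM in BRD cattle (median 907) and from 517 to 1763 CPM in healthy cattle (median 1302), with a log2 fold change of -0.27 (interval -0.83 to 0.30). Antioxidant enzymes had 14 of 24 genes positive with all libraries, and 6 of the 23 that could be tested without the pair. Glycolysis and glucose uptake genes had 20 of 22 positive (median 0.05), and SLC16A3, a lactate transporter, had a log2 fold change of 0.31 (interval -0.03 to 0.64). Without the pair 13 of 22 were positive.

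**Figure D3:**
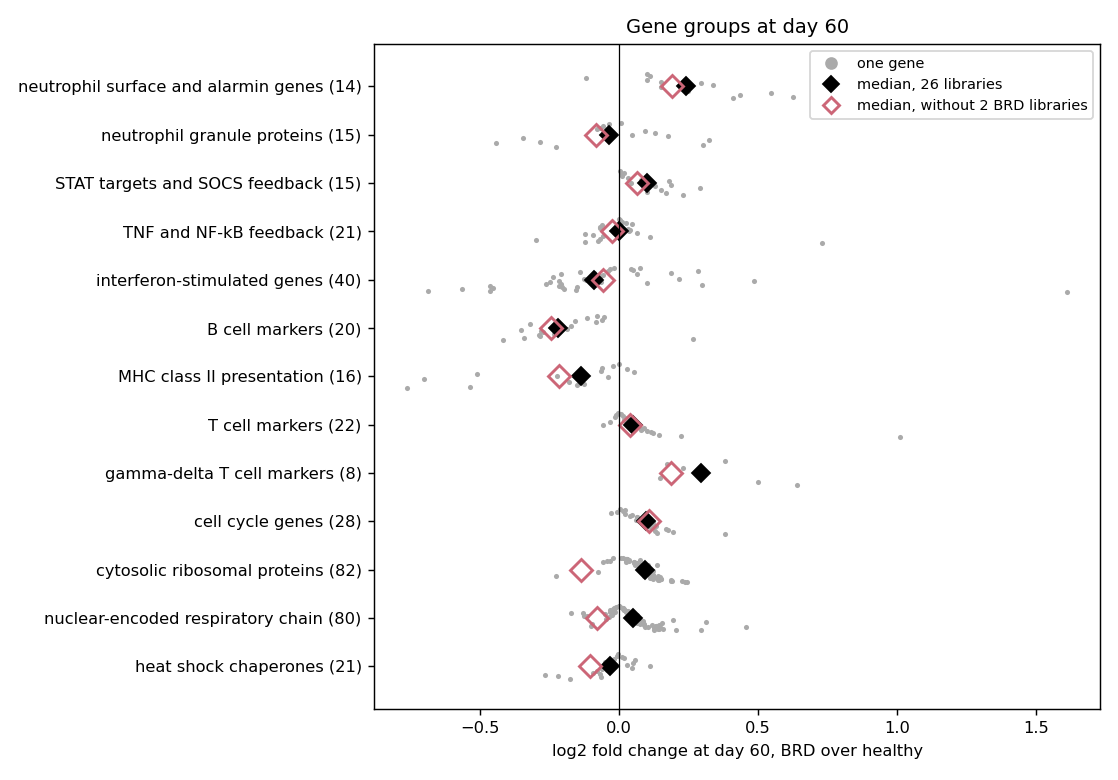
Log2 fold change of BRD over healthy cattle at day 60 for the tested members of 13 gene groups (grey points, number of genes in brackets), with the median over all 26 libraries (black) and without INR animal 40 and COMBO animal 54 (open red). The median of the ribosomal protein genes moves from 0.09 to -0.14 when these 2 BRD libraries are left out, whereas the B cell markers stay at -0.22 and -0.245. The B cell value pools unlike supplements, with medians of -1 in AAC, 0.18 in COMBO and 0.06 in INR.

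Genes that handle the supplemented trace elements had medians near 0 as groups. Of 19 metallothionein and zinc transporter genes, 9 were positive and 10 negative, and 18 had an interval within -1 to 1. MT2A, a metallothionein, had medians of 2.58 CPM in BRD and 2.06 CPM in healthy cattle, with a log2 fold change of 0.32 (interval -0.10 to 0.75). MTF1, the metal-sensing transcription factor, was at 0.69 (interval -0.21 to 1.59). All 16 copper genes had an interval within -1 to 1 (median 0.02), and 3 of them had an unadjusted p below 0.05 in the test of whether the difference depended on supplement, against 7.39% of all genes. ATP7B, a copper-exporting ATPase, was at -0.86 ± 0.27 (SE) in INR, 0.16 ± 0.31 in AAC and 0.10 ± 0.34 in COMBO, and was not called. ABCD4, which moves cobalamin out of the lysosome, was the only gene of 16 in its group at an unadjusted p below 0.05, with a log2 fold change of 0.39 (interval 0.05 to 0.73). The reference genes PDK4, CPT1A and FCGRT were at 0.17, 0.16 and 0.16, each with an interval that held 0.

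Whether the BRD difference depended on supplement was tested as an interaction. Of 16258 genes, edgeR called 0 (0%) at an FDR below 0.10, with a smallest FDR of 0.319, and 1201 (7.39%) had an unadjusted p below 0.05. A likelihood ratio test in DESeq2 called 19 genes, among them all 5 of smallest p in edgeR. In 4 of those 5 genes the difference in AAC was the largest.

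RIC8A, a chaperone of G protein alpha subunits, was at 96.39, 99.2, 110.7 and 120.1 CPM in the AAC BRD animals and at 182, 294, 337 and 364 CPM in the AAC healthy animals. The groups did not overlap in AAC, and overlapped in COMBO and INR. Its log2 fold change was -1.47 ± 0.25 (SE) in AAC, 0.25 ± 0.27 in COMBO and 0.23 ± 0.22 in INR. PRR22 followed the same order, with -1.17 ± 0.25 in AAC, 0.47 ± 0.26 in COMBO and 0.37 ± 0.22 in INR. RRP12, which acts in ribosome maturation, was at -0.43 ± 0.10 in AAC and 0.26 ± 0.09 in INR. C29H11orf95 was at -0.66 ± 0.13 in AAC and 0.35 ± 0.14 in COMBO. RASSF8 differed most in INR, where its log2 fold change was -1.44 ± 0.30, at a level below 1 CPM.

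B cell markers followed this order as a group. In AAC cattle the 20 markers had a median log2 fold change of -1, against 0.18 in COMBO and 0.06 in INR, where the medians over all genes were near 0. The interaction had an unadjusted p below 0.05 for 11 of the 20, against 7.39% of all genes, and 0 were called by edgeR or DESeq2. The number below 0.05 ranged from 6, without AAC healthy animal 49, to 15, without INR healthy animal 10. It was 7 without AAC BRD animal 21. The share of all genes moved with it, at 4.61% without animal 49, 9.91% without animal 10 and 5.33% without animal 21. MS4A1, which encodes CD20, was at 255 to 499 CPM in the AAC BRD animals (median 488) and at 703 to 1075 CPM in the AAC healthy animals (median 826). CD79B, a chain of the B cell receptor complex, was at -1.20 ± 0.37 (SE) in AAC and 0.50 ± 0.39 in COMBO.

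In AAC cattle 17 of the 20 B cell markers had BRD values wholly below the healthy values. Of all genes, 8.94% did not overlap between the 4 BRD and 4 healthy AAC animals, against 3.93% in COMBO (3 against 4) and 0.215% in INR (7 against 4). The numbers of animals differ between these comparisons, and the shares were not tested against each other. With the AAC cattle fitted alone, 14.8% of 16347 genes had an unadjusted p below 0.05 and 0 were called (smallest FDR 0.189). The summed level of the 20 markers was 1740, 2713, 2861 and 2895 CPM in the AAC BRD animals and 3543, 4278, 5031 and 5382 CPM in the AAC healthy animals. The animals of both pens showed this order, with 1740 and 2861 against 4278 and 5382 CPM in pen 2 and 2713 and 2895 against 3543 and 5031 CPM in pen 8.

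The groups of other lymphocyte genes moved beside the B cell markers in AAC. The summed MHC class II genes ranged from 5463 to 8407 CPM in AAC BRD animals and from 10590 to 14070 CPM in AAC healthy animals. T cell markers ranged from 3539 to 4481 CPM against 2131 to 3137 CPM, and gamma-delta T cell markers from 488 to 937 CPM against 286 to 436 CPM. In none of these groups did BRD and healthy animals overlap in AAC, and in each of them they overlapped in COMBO and INR. Of the summed levels of all 40 tested groups, 6 did not overlap in AAC, 2 in COMBO and 0 in INR. The other AAC groups were circadian clock genes (478 to 570 CPM in BRD against 424 to 468 CPM in healthy animals) and fatty acid oxidation genes (1411 to 1779 CPM against 1112 to 1336 CPM), and those in COMBO were plasma cell and endoplasmic reticulum stress genes, with BRD animals above healthy animals. CPM are shares of a library, so these sums are not independent of each other. The part of cell makeup in the single genes above was not tested.

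**Figure D4:**
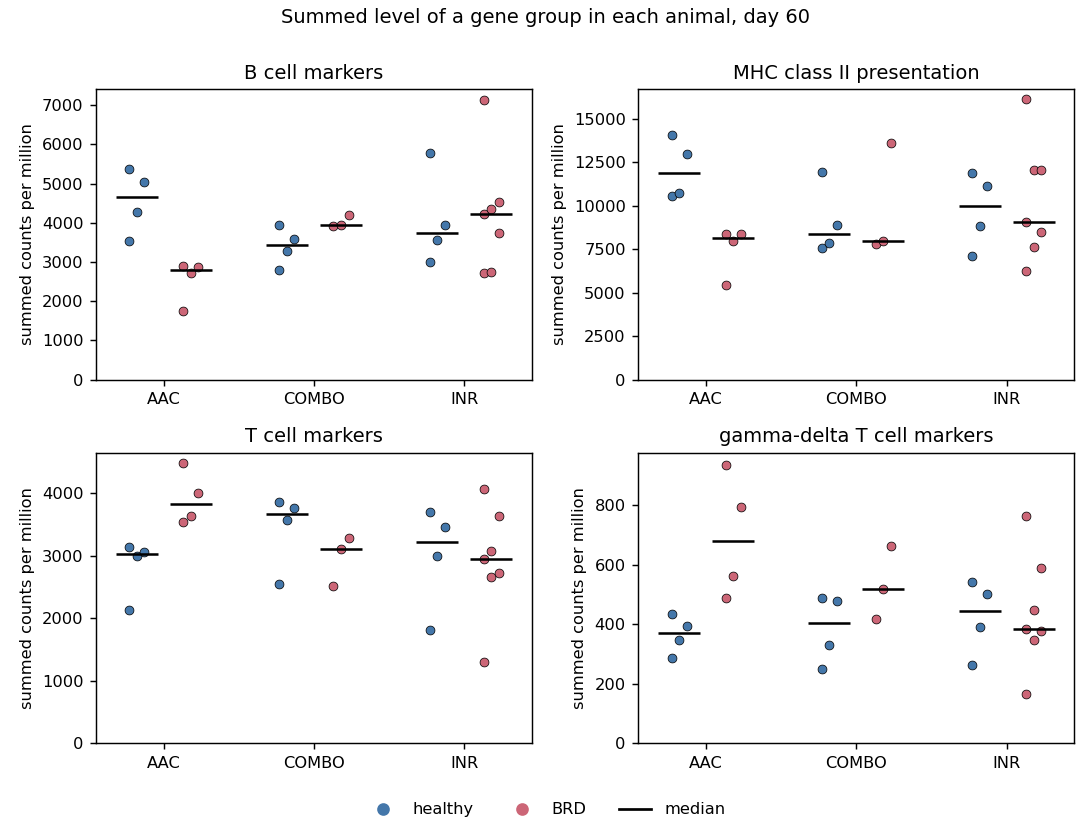
Summed CPM of 4 gene groups in each animal at day 60, by supplement, with healthy animals in blue, BRD animals in red and the median as a line. In AAC the BRD animals lie below the healthy animals for B cell markers and MHC class II genes and above them for T cell and gamma-delta T cell markers, and in COMBO and INR they overlap.

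Part of this order in AAC was present on earlier days. On day 0 the summed B cell markers ranged from 1558 to 2331 CPM in AAC BRD animals and from 3049 to 5849 CPM in AAC healthy animals, and on days 13, 28 and 45 the groups did not overlap either. Gamma-delta T cell markers did not overlap on any day, with 459 to 1166 CPM against 259 to 447 CPM on day 0. MHC class II genes overlapped on day 0 (6893 to 10700 CPM against 9161 to 12910 CPM) and not on later days. T cell markers overlapped on days 0, 13 and 28, with 2867 to 4848 CPM against 1897 to 3123 CPM on day 0, and did not overlap on days 45 and 60. In COMBO the B cell order was the opposite on day 0, at 3540 to 5853 CPM in BRD and 1331 to 3086 CPM in healthy animals, and the groups overlapped on days 45 and 60. The INR groups overlapped on all 5 days. Day 13 had 3 healthy AAC animals. The share of all genes whose groups did not overlap was taken at day 60 only, so the earlier days have no such reference.

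**Figure D5:**
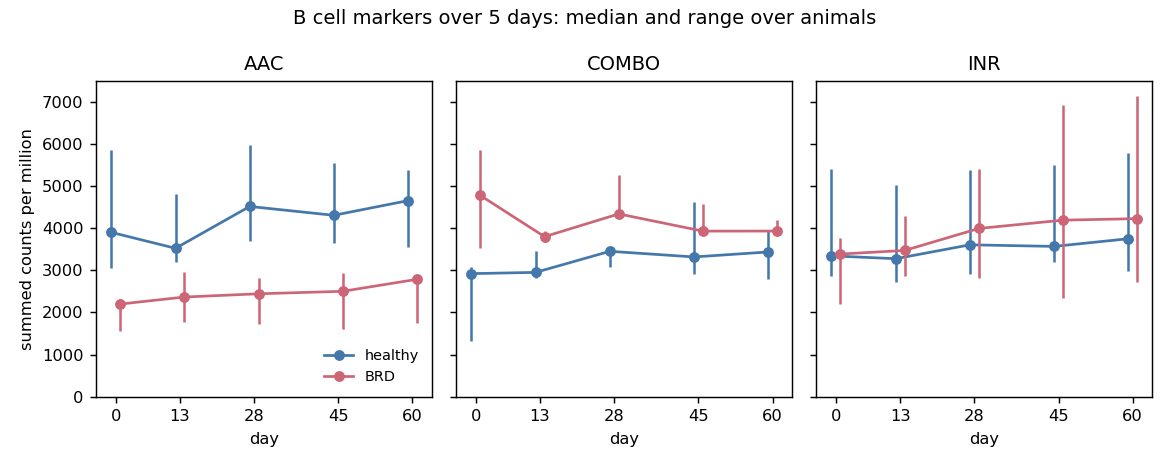
Summed CPM of the 20 B cell markers by day and supplement, with points at the median and bars over the range of the animals, healthy in blue and BRD in red. The AAC groups do not overlap on any day from day 0 to day 60, the COMBO groups stand in the opposite order early on, and the INR groups overlap throughout.

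Changes within the same animals were compared between BRD and healthy cattle. From day 45 to day 60, edgeR called 0 of 16941 genes (0%), and 331 (1.95%) were at an unadjusted p below 0.05. LOC100301305 stood first, whose change was 2.81 ± 0.72 (SE) lower on the log2 scale in BRD cattle, with BRD medians of 1.28 CPM on day 45 and 0.221 CPM on day 60 and healthy medians of 0.171 and 1.17 CPM. ARPC4, a subunit of the actin-nucleating Arp2/3 complex, had BRD medians of 72.2 and 31.2 CPM and healthy medians of 30.1 and 38.5 CPM on these days.

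From day 0 to day 60, 0 of 16929 genes (0%) were called, and 319 (1.88%) had an unadjusted p below 0.05. FGF13, of smallest p, had BRD medians of 0.353 and 0.139 CPM and healthy medians of 0.251 and 0.290 CPM. CDH1, which encodes E-cadherin, had BRD medians of 1.31 and 4.47 CPM and healthy medians of 3.62 and 5.97 CPM.

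Among the 5 days, day 60 had the smallest share of genes at an unadjusted p below 0.05 between BRD and healthy cattle. The share was 5.33% on day 0, 3.47% on day 13, 9.22% on day 28, 3.14% on day 45 and 2.28% on day 60, from fits of each day alone, and the differences between these shares were not tested. On days 13, 45 and 60 it was below the 5% that a p below 0.05 gives with no difference. The order of these days therefore does not show that a difference faded. At day 60 the count was 370 genes, and 713 without INR animal 43. On day 28 edgeR called 1 gene, LOC101904468, with a log2 fold change of -3.49 ± 0.60 (SE). At day 60 the same gene was at -0.98, with an interval of -2.69 to 0.72.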

How the data were processed

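Whole blood RNA of 26 steers (14 BRD, 12 healthy) at day 60 was analysed. The authors prepared stranded mRNA libraries and deposited one table of counts per gene, without normalization, for 32395 genes. Per the submitters' processing notes the tools included FastQC 0.11.9, Trimmomatic 0.39, HISAT2 2.1.1, StringTie 2.2.0 and edgeR 3.36.0, and the study's methods name ARS-UCD1.3. The counts were derived from read coverage by prepDE and are not direct tallies of reads, and strand use in counting was not given in the sources used here.

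Genes were kept with filterByExpr, scaled with TMM factors and tested in R 4.3.3 with edgeR 4.0.16 (common dispersion, quasi-likelihood F-test, supplement as a covariate, Benjamini-Hochberg adjustment over all genes tested, FDR below 0.10). CPM are TMM-scaled. Intervals are 95%. The biological coefficient of variation was 36.7%. Changes between days were tested with animal as a block: the labels give the same animals on each day, and the median share of variance between animals was 48.5%. Principal components used log2 CPM with a prior count of 2. Alternatives used DESeq2 1.42.0, limma 3.58.1 with voom, other filters and scalings, other covariates and each animal left out. Figures were drawn with matplotlib 3.10.9. Scripts were tested on simulated data.

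The comparison, the 41 gene lists and the rule for named genes were chosen with earlier results of these data known. Named were the 10 genes of smallest p in each direction, up to 4 members of each list and 5 genes of each interaction of smallest p, and 4 reference genes (PDK4, CPT1A, FCGRT and ATP6). Outside this rule, MS4A1, CD79B and LOC101904468 were named after their values were seen, as were ATP8 and the markers used to check the tissue. List members received no set test. Sums of markers per animal are descriptions. Library depth sets counting error only. Whether the spread between animals is larger depends on the level of the gene.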

Additional observations from a re-analysis of the deposited data

Results flagged for a closer look

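The summed levels of the cell type markers were compared within each of 60 groups of 4 to 7 animals of the same supplement and status, and 7 had an animal farther from the rest than Dixon's critical value allows, where chance flags about 1 in 20 groups. Among BRD cattle, AAC animal 21 was low for B cell markers (1740 CPM against 2713 to 2895 CPM in the other 3), and INR animal 43 was high for them (7135 CPM against 4523 CPM in the next animal). INR animal 29 was high for eosinophil and basophil markers (986 CPM, next 633 CPM), and AAC animal 9 was high for erythroid genes (13542 CPM, next 3352 CPM). Among healthy cattle, COMBO animal 6 was high for neutrophil surface and alarmin genes (2325 CPM, next 1486 CPM), COMBO animal 42 was high for plasma cell genes (1782 CPM, next 1280 CPM), and AAC animal 49 was low for T cell markers (2131 CPM, next 2999 CPM).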

How the results depend on the processing

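The count of genes called between BRD and healthy cattle was 0 and stayed 0 with limma and voom, RLE factors, a trended dispersion, the legacy quasi-likelihood method, an FDR of 0.05, a stricter filter (1 CPM in 12 libraries), disease alone, pen in place of supplement, AAC cattle alone, and without animal 40, without the COMBO cattle and, chosen after seeing the data, without animals 40 and 54. It was 1 with DESeq2 (ATP6), 1 with all libraries of the 5 days in a single model (ATP6) and 1 without a filter on low counts (LOC100336795). It ranged from 0 to 0 with each animal left out. Genes at an unadjusted p below 0.05 numbered 370, against 1050 with pen in place of supplement, 778 without a filter, 697 with all libraries and 713 without animal 43. The interaction with supplement called 0 genes, 19 with the DESeq2 likelihood ratio test, and 0 to 1 with each animal left out (chosen after seeing the data), where the 1 was MKRN3 without COMBO animal 18. Without the replicate block the changes from day 45 and from day 0 to day 60 called 0 genes each, as with the block, so the block changed no call; genes at an unadjusted p below 0.05 numbered 120 and 209 without the block, against 331 and 319 with it. Of 7890 recomputed log2 fold changes of named genes, some changed sign, 43 of them in the AAC cattle alone, and 2 were called, both of ATP6. With 3 to 7 animals in each combination of supplement and status, an interval that holds 0 does not show that values were alike.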
